A study of Mus musculus with 2 samples.

Results

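The 6 genes Gad1, Gad2, Slc32a1, Slc6a11, Abat and Aldh5a1 make, package, take up and break down GABA. They were chosen by symbol from the 55536 gene rows of the tables, not by a cut on their measured values. Earlier results of these data were known when they were chosen. Each symbol matched 1 row. All 6 were detected, at 1 TPM or more in both libraries, as were 13800 genes in all. TPM is a level corrected for transcript length and scaled to the same sum in each library. Poly(A)+ RNA came from the left cerebral cortex of adult mice aged 6 months. The strain was B6NCrl, which another field of the labels calls C57BL/6; the labels describe a male in one field and give the sex as not collected in another. The only group, cortex, had 2 libraries, replicates 1 and 2, with no treatment, engineered allele or comparison group in the labels. Both were made from 20 ng of RNA and fragmented by Nextera tagmentation, which uses a transposase to break DNA and attach adapters. The replicates had separate tissue records but the same donor entry, so spreads and p-values measure only the difference between these libraries, which may be technical.

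GABA is the main inhibitory transmitter of the cerebral cortex. It is made from glutamate in interneurons, loaded into synaptic vesicles, and cleared from the extracellular space by transporters on neurons and astrocytes. Its carbon then passes through succinic semialdehyde into the citric acid cycle. Gad1 and Gad2 encode the glutamate decarboxylases GAD67 and GAD65, which use pyridoxal phosphate as cofactor. Slc32a1 encodes the vesicular transporter VGAT, and Slc6a11 encodes the plasma membrane transporter GAT3, known mainly from astrocytes. Abat encodes GABA transaminase, and Aldh5a1 encodes succinic semialdehyde dehydrogenase, the mitochondrial enzyme that finishes the breakdown.

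Replicate 1 held 51888568 fragments on genes and replicate 2 held 26776336. Markers of the labelled tissue were present: 7 of 7 excitatory neuron, 19 of 19 interneuron, 11 of 11 astrocyte and 7 of 7 oligodendrocyte markers were detected. The list of meningeal and mural markers had 9 of 9 genes detected, with a summed level of 97.9 TPM in replicate 1 and 88.2 in replicate 2. The striatal list also had 9 of 9 detected and summed to 594 and 605 TPM, and the part of RNA from outside the cortex in any result was not tested. Of 14656 tested genes, 62.6% differed between the libraries beyond counting error, 26.2% higher and 36.4% lower in replicate 2 (edgeR-scaled counts, exact binomial test, Benjamini-Hochberg adjusted). Under scaling to total counts the split turned, with 5776 genes higher and 4134 lower in place of 3843 and 5328. That scaling moved the median log2 ratio of all tested genes from -0.03 to 0.09.

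Both synthesis genes were well above most detected genes, and Gad1 was the higher. Gad1 (ENSMUSG00000070880.10, mm10 chromosome 2, 70553072 to 70602014, plus strand) stood at 114 TPM in replicate 1 and 162 in replicate 2, a mean of 138 ± 34.2 (SD, n = 2). It ranked 1095th of the detected genes, within the top 7.93%. Gad2 (ENSMUSG00000026787.3, chromosome 2, 22622205 to 22693874, plus strand) stood at 26.2 and 41.6 TPM, a mean of 33.9 ± 10.9 (SD, n = 2), within the top 26.7%. The ranges of these genes did not overlap. Within a library, Gad1 had 4.33 times the level of Gad2 in replicate 1 and 3.89 times in replicate 2. In the second transcript tables, a separate quantification by the authors, the same ratios were 3.36 and 2.86, so Gad1 stayed above Gad2 in both.

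The vesicular transporter lay well below the enzymes that supply it. Slc32a1 (ENSMUSG00000037771.11, chromosome 2, 158610767 to 158615748, plus strand) had 12.3 TPM in replicate 1 and 7.43 in replicate 2, a mean of 9.89 ± 3.47 (SD, n = 2). This level was 8.83% of the summed Gad1 and Gad2 level in replicate 1 and 3.65% in replicate 2. The second tables gave 8.42% and 4.46%, with replicate 1 again the higher. It ranked 7680th of the detected genes, within the top 55.7%.

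Slc6a11 (ENSMUSG00000030307.8, chromosome 6, 114131241 to 114249952, plus strand) had 16.8 TPM in replicate 1 and 8.43 in replicate 2, a mean of 12.6 ± 5.89 (SD, n = 2). Among its relatives, Slc6a13, which encodes GAT2, a transporter of meninges and vessels, had 19.0 and 15.5 TPM. Slc6a12, the betaine and GABA transporter, stood at 0.48 TPM in both libraries, below the level of detection. In replicate 1 Slc6a11 lay close to Slc6a13, and in replicate 2 it lay below it.

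The breakdown enzymes differed in level. Abat (ENSMUSG00000057880.12, chromosome 16, 8513429 to 8621568, plus strand) had 64.4 TPM in replicate 1 and 90.6 in replicate 2, a mean of 77.5 ± 18.5 (SD, n = 2), within the top 13.9%. Aldh5a1 (ENSMUSG00000035936.6, chromosome 13, 24907579 to 24937661, minus strand) had 8.43 and 7.88 TPM, a mean of 8.16 ± 0.389 (SD, n = 2), and ranked 8396th. It had the lowest mean and the smallest SD of the 6 on the TPM scale. Abat had 7.64 times the level of Aldh5a1 in replicate 1 and 11.5 times in replicate 2. The synthesis enzymes summed to 2.17 times the Abat level in replicate 1 and 2.25 times in replicate 2, closer between the libraries than the ratio of Abat to Aldh5a1.

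From high to low the order of mean levels was Gad1, Abat, Gad2, Slc6a11, Slc32a1 and Aldh5a1. Each of the upper 3 stood above the next without overlap. The ranges of Slc6a11, Slc32a1 and Aldh5a1 overlapped across the libraries. Within each library Slc6a11 was the highest of these 3, also in the second transcript tables. The order of Slc32a1 and Aldh5a1 was not set by these libraries. Aldh5a1 was the lowest in replicate 1 and Slc32a1 in replicate 2, where all 3 lay between 7.43 and 8.43 TPM.

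**Figure D1:**
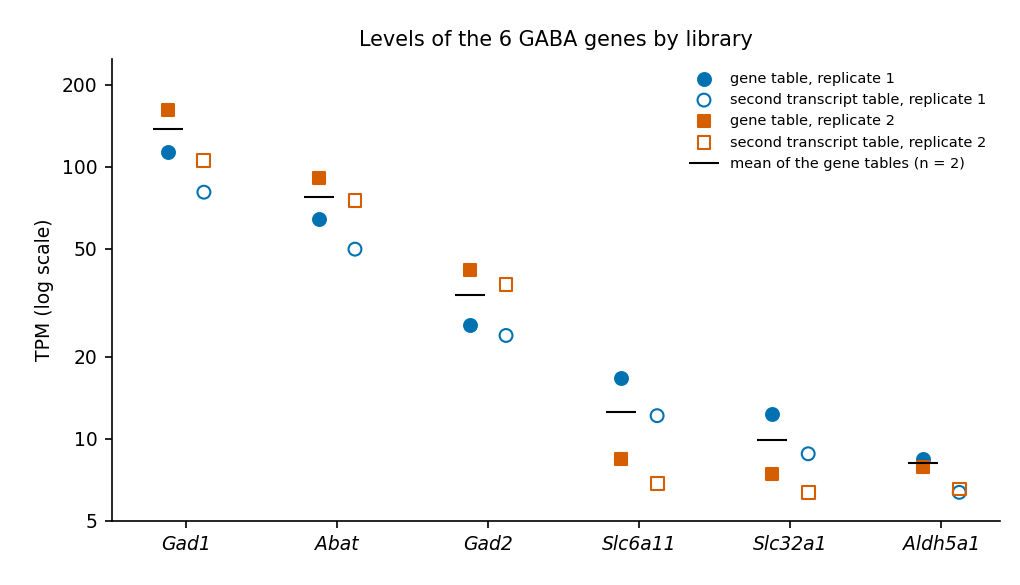
Levels of the 6 GABA genes in TPM on a log axis, with filled symbols for the gene tables, open symbols for the second transcript tables and a line for the mean of the gene tables (n = 2). In the gene tables Gad1, Abat and Gad2 stand apart from one another, and the ranges of Slc6a11, Slc32a1 and Aldh5a1 overlap.

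Across the libraries the 6 genes did not move together. Gad1, Gad2 and Abat were higher in replicate 2, and Slc32a1, Slc6a11 and Aldh5a1 were lower. All 6 passed the exact binomial test, which sets 1 library against 1, covers counting error only and carries no replicate check; 62.6% of all tested genes passed it too. Their median log2 ratio was -0.03, the same as the -0.03 of all tested genes. In bulk tissue, fewer cells of a type and less RNA per cell cannot be told apart.

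Gad1 had 12304 fragments in replicate 1 and 8434 in replicate 2, or 248 and 301 CPM, the fragment count scaled to library size. The log2 ratio of replicate 2 to replicate 1 was 0.28 (95% Clopper-Pearson interval 0.24 to 0.32). Gad2 had 4864 and 3513 fragments, 98.0 and 125 CPM, and a log2 ratio of 0.35 (0.29 to 0.42). Abat had 10863 and 6931 fragments, 219 and 248 CPM, and a log2 ratio of 0.18 (0.13 to 0.22). These differences were of ordinary size for this pair of libraries. Of all tested genes, 45.6% lay at least as far apart as Gad1, 36.7% as Gad2 and 62.4% as Abat. On the TPM scale the log2 ratios of these genes were larger, 0.51, 0.67 and 0.49 in the same order. For Slc32a1, Slc6a11 and Aldh5a1 the TPM log2 ratios were -0.73, -0.99 and -0.10. Their CPM log2 ratios were lower as well, at -0.84, -1.11 and -0.24. The TPM of a gene sums all its annotated transcripts, including the processed transcripts Gad1-206 and Gad2-202. The part of these transcripts in the gap between TPM and CPM ratios was not tested. In the first transcript tables Gad1-206 had 29.2 TPM in replicate 1 and 56.5 in replicate 2, and Gad2-202 had 5.02 and 12.2.

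Slc6a11 had 2669 fragments in replicate 1 and 689 in replicate 2. Its CPM fell from 53.8 to 24.6, a log2 ratio of -1.11 (-1.25 to -1.01), with an adjusted p of 2.1e-84 by the exact binomial test. It was 2.19-fold lower in replicate 2, and 7.93% of tested genes lay at least as far apart. Slc32a1 had 1306 and 405 fragments, 26.3 and 14.5 CPM, and a log2 ratio of -0.84 (-1.03 to -0.70). It was 1.82-fold lower in replicate 2, and 12.5% of tested genes lay at least as far apart. The second tables gave log2 ratios of -1.05 for Slc6a11 and -0.70 for Slc32a1. Aldh5a1 had 1858 and 888 fragments, 37.4 and 31.7 CPM, and a log2 ratio of -0.24 (-0.36 to -0.12), with an adjusted p of 0.0001 by the exact binomial test. Scaled to total counts, Aldh5a1 had a log2 ratio of -0.11 and an adjusted p of 0.086 by the same exact test and was no longer called. The other 5 members kept their direction and their call under every scaling tried.

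The list genes nearest to the members in level came from several cell types. Over both libraries, the list genes nearest to Gad1 in log2 level were the interneuron peptide Sst, at 109 and 146 TPM, and the astrocyte gap junction gene Gja1, at 109 and 138. Nearest to Gad2 were Tac1, at 25.2 and 38.4 TPM, and the interneuron peptide Vip, at 28.7 and 36.7. Abat lay nearest to the myelin gene Mog, at 70.6 and 95.9 TPM, and the astrocyte gap junction gene Gjb6, at 75.3 and 92.3. Slc32a1 lay nearest to the excitatory neuron factor Neurod2 (10.7 and 7.01 TPM) and then to the interneuron factor Dlx1. Slc6a11 lay nearest to Dlx1 (13.4 and 8.52 TPM) and then to the cortical factor Tbr1, at 22.3 and 7.70. Aldh5a1 lay nearest to Reln, at 6.96 and 8.44 TPM, and then to Neurod2. With 2 libraries, nearness is a likeness of level only.

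The neighbouring pathway genes were described by fixed lists, which were not tested as sets. Of 22 tested pathway genes other than the 6 members, 7 were higher and 10 lower in replicate 2 and 5 were not called. Their median log2 ratio was -0.03, as over all tested genes. For this and the following lists, the shares over all 14656 tested genes were 26.2% higher and 36.4% lower. Among the plasma membrane transporters, Slc6a13 was lower, with a log2 ratio of -0.39, a smaller difference than the -1.11 of Slc6a11. No test compared these transporters with each other.

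Among 7 genes of glutamate and glutamine supply, 3 were higher, 2 lower and 2 not called. Glul, the glutamine synthetase of astrocytes, had 81.5 TPM in replicate 1 and 187 in replicate 2, a log2 CPM ratio of 0.98. Its fragments, 8413.23 and 9366.77, were not whole numbers, so some had been divided with other genes and its level is uncertain to that extent. The glutamine carriers Slc38a2 and Slc38a5 were also higher, from 11.5 to 14.2 and from 2.20 to 3.76 TPM. Glutamate dehydrogenase Glud1 was lower, at 54.1 and 45.5 TPM, as was the astrocyte glutamine carrier Slc38a3, at 44.0 and 33.8. The neuronal carrier Slc38a1, at 33.6 and 43.0 TPM, did not pass the test.

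Pdxp and Pdxk, which break down and make pyridoxal phosphate, the cofactor of both decarboxylases and of GABA transaminase, were lower in replicate 2. The phosphatase gene Pdxp had 174 TPM in replicate 1 and 53.2 in replicate 2, a log2 CPM ratio of -1.82. Its GC content was 62.3%, and with trends on GC content and length removed its ratio was -1.36. The kinase gene Pdxk had 35.0 and 32.7 TPM, closer together. Pdxp lay further apart between the libraries than Slc6a11, and Pdxk less far.

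Of 5 genes on other routes to or from GABA, 1 was higher, 2 were lower and 2 were not called. Aldh1a1, an aldehyde dehydrogenase, was higher at 29.1 and 47.5 TPM. Aldh9a1, which oxidises the aminobutyraldehyde made from putrescine, was lower at 25.6 and 22.0 TPM, and Adhfe1, which oxidises gamma-hydroxybutyrate, was lower at 22.4 and 19.0. The monoamine oxidase gene Maob had 18.0 and 20.9 TPM, and Akr7a5, which encodes a reductase of succinic semialdehyde, had 41.5 and 44.3 TPM.

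**Figure D2:**
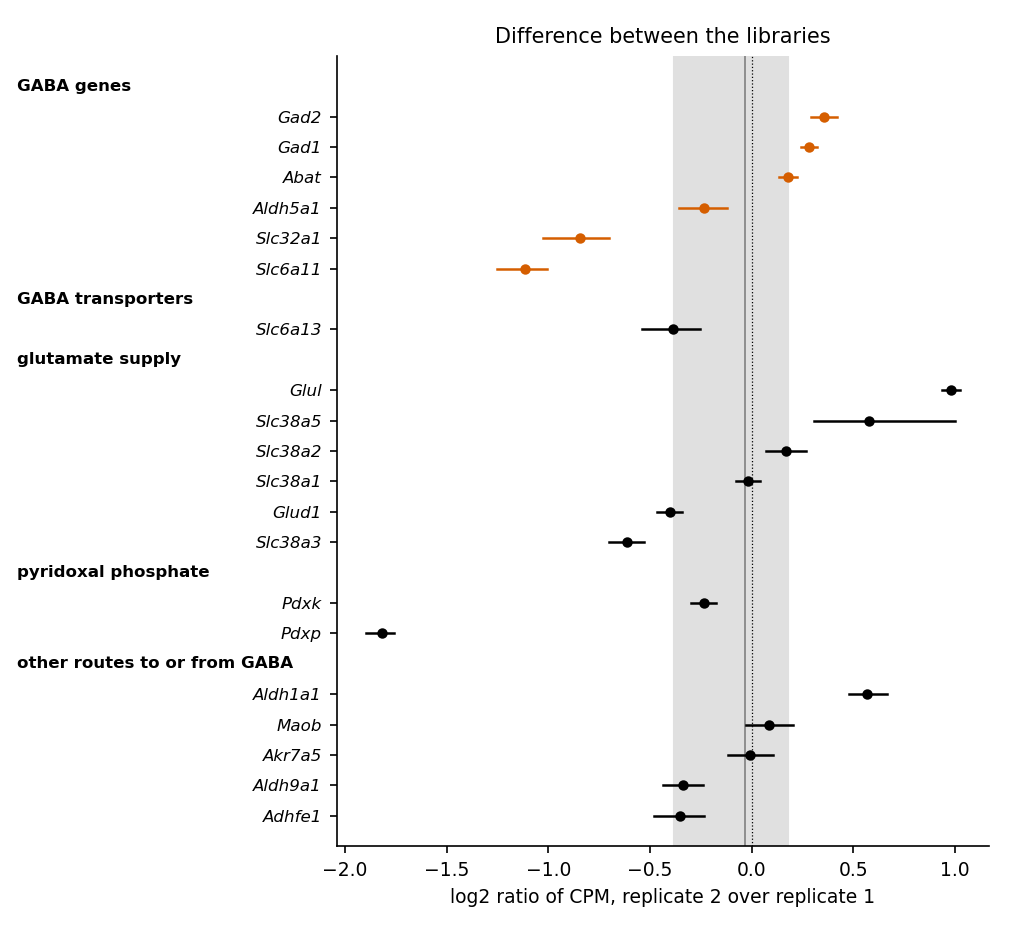
Log2 CPM ratio of replicate 2 over replicate 1 with 95% Clopper-Pearson intervals for the 6 GABA genes (orange) and reported genes of 4 pathway lists (black). The grey line and band are the median of all tested genes and their quartiles, from -0.38 to 0.18; Slc6a11 and Slc32a1 lie left of the band, and Gad1 and Gad2 right of it.

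The ratio between the libraries varied with base composition. Over 14645 tested genes, which share the same 2 libraries, the GC content of the transcripts and the log2 ratio had a Spearman rho of -0.307. Slc32a1 had the highest GC content of the 6 genes, 61.9%, and tested genes within 2.5 points of it had a median log2 ratio of -0.51. With trends on GC content and length removed, its log2 ratio was -0.36 in place of -0.84. Slc6a11, at 53.9% GC, stood further from its like: genes of similar GC content had a median of -0.09, and its ratio was -1.01 after the trends were removed. Gad1, Gad2, Abat and Aldh5a1 had GC contents of 49.7%, 45.8%, 50.9% and 48.3%. After removal their log2 ratios were 0.28, 0.33, 0.24 and -0.21, and all 6 genes kept their direction and their call.

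**Figure D3:**
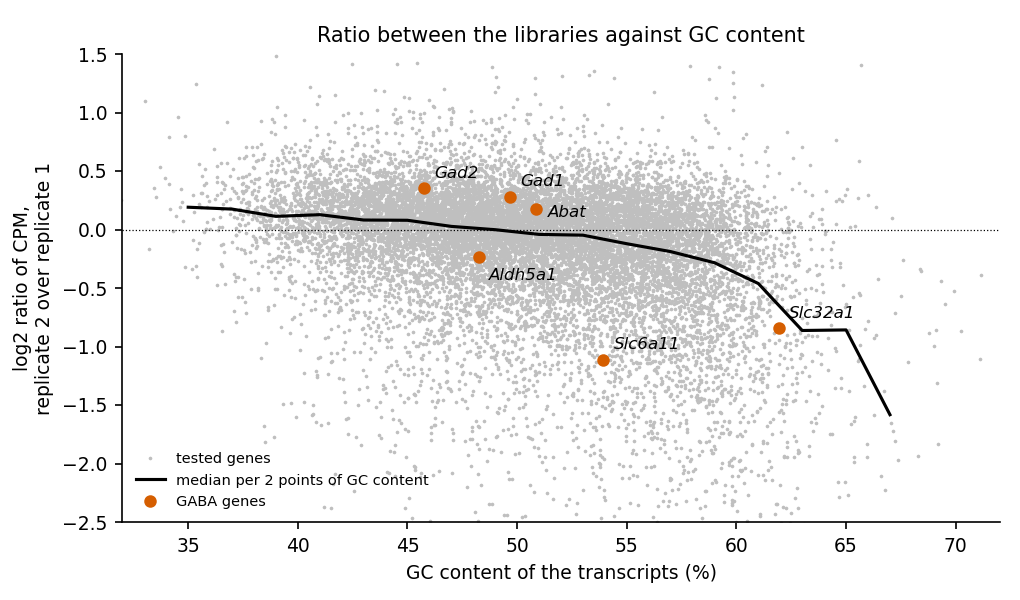
Log2 CPM ratio of replicate 2 over replicate 1 against the GC content of each gene's transcripts, with tested genes in grey, their median per 2 points of GC content as a line, and the 6 GABA genes in orange; 181 tested genes lie outside the axes. Slc32a1 lies below the line at 61.9% GC, and Slc6a11 lies further below it at 53.9%. Slc32a1 had a log2 ratio of -0.84 against a median of -0.51 for genes of similar GC content. Slc6a11 had -1.11 against -0.09.

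Slc32a1 and Aldh5a1 shared sequence with genes on the other strand. Slc32a1 overlapped the antisense gene Gm14205, and of its words of 31 bases 669 also occurred in that gene, which left 75.8% found in no other gene. Gm14205 was assigned 270 fragments in replicate 1 and 7.64 in replicate 2. With those fragments added to Slc32a1, its log2 ratio was -1.08 in place of -0.84. Aldh5a1 overlapped 9330162012Rik, assigned 180 and 23.2 fragments, and 4932702P03Rik, assigned 1.03 and 1.04; with the first added, its log2 ratio was -0.33. No source used here says whether counting used strand, so reads of these pairs cannot be told apart. Gad1 shared 289 words with its pseudogene Gad1-ps, which held 1 fragment in each library, and its antisense gene Gad1os held 5 and 1. Gm23636 and Mir3967 within Gad2, and Gm8132 within Slc6a11, held 0 fragments in both libraries. Every word of the Abat and Slc6a11 main transcripts occurred in no other gene.

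Gad1, Gad2 and Abat were divided among several annotated transcripts. The junctions that separate the leading pairs are shown from the GENCODE M21 transcripts on mm10, 5′ to 3′ on the plus strand, with the last 30 bases of the differing upstream part in lower case and the first 30 bases of the shared downstream exon in capitals.
Gad1-201: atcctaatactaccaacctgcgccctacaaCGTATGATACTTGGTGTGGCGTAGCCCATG
Gad1-206: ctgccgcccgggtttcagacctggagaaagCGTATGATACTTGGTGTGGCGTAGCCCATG
Gad2-201: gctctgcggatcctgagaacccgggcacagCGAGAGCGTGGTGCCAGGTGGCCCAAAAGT
Gad2-202: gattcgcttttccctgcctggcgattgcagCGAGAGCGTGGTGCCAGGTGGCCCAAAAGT
Abat-201: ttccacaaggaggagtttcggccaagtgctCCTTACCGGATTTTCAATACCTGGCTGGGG
Abat-203: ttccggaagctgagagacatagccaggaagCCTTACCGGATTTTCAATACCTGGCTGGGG
The Gad1 upstream parts lie on chromosome 2 at 70563881 to 70563910 in Gad1-201 and 70566424 to 70566453 in Gad1-206, before the shared exon that starts at 70567186. In Gad2 they lie on chromosome 2 at 22622709 to 22622738 and 22623406 to 22623435; the latter bases are intronic to Gad2-201 and run straight into its exon. In Abat they lie on chromosome 16 at 8611265 to 8611294 and 8608964 to 8608993, before the exon at 8613983, because Abat-203 leaves out the exon at 8611127 to 8611294. That exon is 168 bases, or 56 codons, long.

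Gad1-201, the protein-coding transcript of 17 exons, held 59.7% of the gene's TPM in replicate 1 and 45.7% in replicate 2 in the first transcript tables. Gad1-206, annotated as a processed transcript without a coding sequence, held 25.7% and 34.9%. Gad1-206 begins with an exon of its own, 77 bases long, and then runs through the last 15 exons of Gad1-201. In the second tables the shares were 79.2% and 83.6% for Gad1-201 and 3.14% and 11.9% for Gad1-206. The quantifications thus put the same transcript first in both libraries but differed on the size of the remainder. Of the 31-base words of Gad1-201, 2 of 3325 occurred in no other Gad1 transcript, against 77 of 2966 in Gad1-206. Words that tell only this pair apart were not counted. Gad1-201 has 434 bases before the shared exon that are not part of Gad1-206.

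The third, Gad1-204, is 398 bases long and held 11.0% and 17.2% of Gad1 TPM in the first tables, and 11.2% and 0% in the second. In fragments it held only 0.963% and 1.85% of the gene, since TPM divides by length. The authors' interval for its TPM ran from 4.13 to 19.3 in replicate 1 and from 11.4 to 37.9 in replicate 2, wide and overlapping. For Gad1-201 the authors' intervals, 60.8 to 72.1 and 62.3 to 82.2 TPM, also overlapped, while those of Gad1-206, 21.6 to 33.1 and 42.0 to 62.0, did not. In the first tables Gad1-206 went from 29.2 TPM in replicate 1 to 56.5 in replicate 2, and Gad1-201 from 67.8 to 74.1. The second tables divided the difference the other way, with Gad1-201 going from 63.8 to 87.9 TPM and Gad1-206 from 2.53 to 12.5. Which Gad1 transcript carried the higher level of replicate 2 thus depended on the quantification. Gad1-202 held 3.14% and 1.69% in the first tables and 5.44% and 3.14% in the second.

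**Figure D4:**
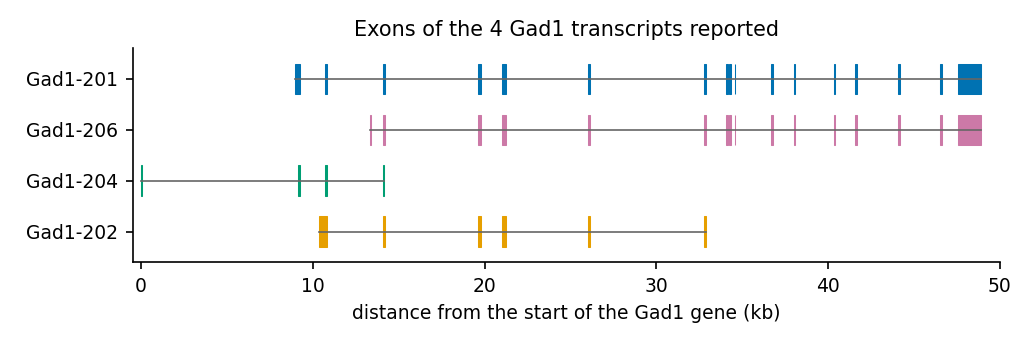
Exon models of the Gad1 transcripts drawn to scale by distance from the start of the gene in kilobases, with boxes for exons and lines for introns. Gad1-206 starts inside the gene and runs through the last 15 exons of Gad1-201, and Gad1-204 covers only 4 exons at the 5′ end.

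Gad2-201, the full-length coding transcript, held 80.8% of Gad2 TPM in replicate 1 and 70.6% in replicate 2. Gad2-202, a processed transcript of 721 bases that starts with 132 bases of intron, held 19.2% and 29.4%, and 36.1% and 37.7% in the second tables. It held 2.31% and 4.25% of Gad2 fragments in the first tables. The authors' TPM intervals of Gad2-202 were 3.27 to 6.82 and 8.27 to 15.4 and did not overlap.

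Of these 3 genes, Abat had the widest gap in the share of its main transcript between the libraries in the first tables. Abat-201 held 87.7% of Abat TPM in replicate 1 and 65.8% in replicate 2, and Abat-203 held 12.2% and 34.0%. The second tables gave Abat-203 25.0% and 33.1%, higher in replicate 2 again but with a smaller gap. In the first tables Abat-203 had 7.84 and 30.8 TPM and Abat-201 had 56.5 and 59.6, so most of the higher Abat TPM of replicate 2 was assigned to Abat-203 there. In the second tables Abat-203 had 12.4 and 24.8 TPM and Abat-201 had 36.5 and 46.4, a more even division. The authors' intervals for Abat-203, 4.85 to 9.98 and 25.4 to 32.5, did not overlap. Abat-203 also ends 1998 bases before Abat-201, and 29 of its 2384 words occurred in no other Abat transcript, against 2246 of 4606 in Abat-201. Slc32a1 and Aldh5a1 had a single transcript at 100%, and Slc6a11-201 held 99.8% and 100%.

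**Figure D5:**
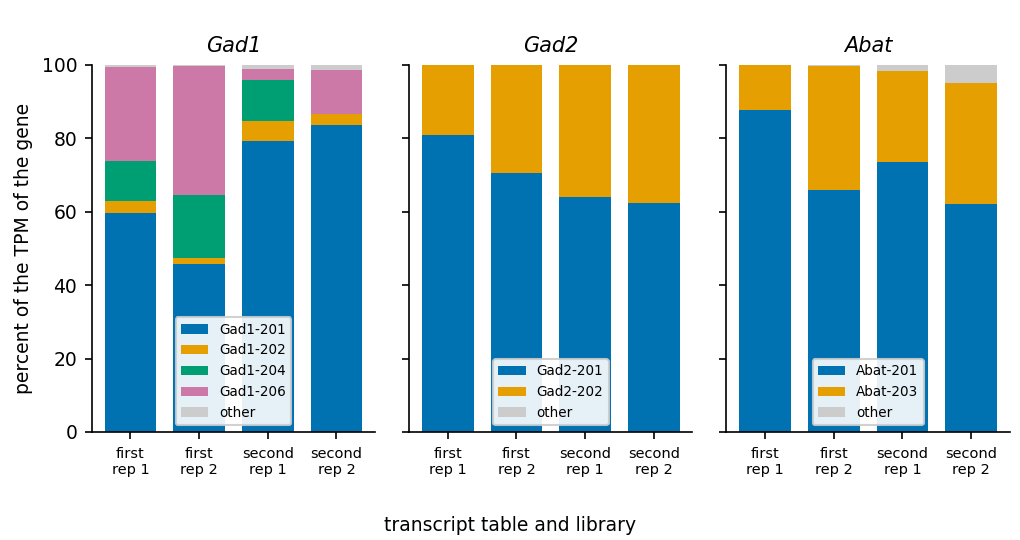
Share of each gene's TPM held by its transcripts, in percent, for Gad1, Gad2 and Abat in both libraries and both quantifications of the authors. Gad1-206 is large in the first transcript tables and small in the second, while the share of Abat-203 is higher in replicate 2 in both.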

How the data were processed

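The data are 2 cortex libraries with 3 deposited tables each, on mm10 with GENCODE M21, per the notes deposited with them. The authors made the gene tables and first transcript tables from alignments to the transcriptome; these hold expected counts, TPM and isoform percent, per the file headers. The second transcript tables hold estimated counts and TPM, made by the authors from the read files, per the deposited notes. The quantifiers, their versions and any use of strand: not given in the sources used here. Other deposited columns used were transcript lengths and the authors' intervals of TPM.

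Rows with numeric names (26248) and spike-ins (97) stayed out; they held 1.73e-05 and 3.35e-05 percent of fragments. Expected counts were rounded and scaled with TMM (edgeR 4.0.16, R 4.3.3). An exact two-sided binomial test per gene was run on genes whose mean CPM reached 1, with Benjamini-Hochberg adjustment over them and a threshold of 0.05. Log2 ratios used CPM plus 0.5, which understates changes of low genes. The 95% Clopper-Pearson intervals set 1 library against 1, so they cover counting error only. No molecular identifiers were used to tell copied fragments apart. Trends of the ratio on GC content and length were taken out by lowess (fraction 0.3, statsmodels 0.14.6). The test was checked on simulated counts. Isoform shares, nearest levels (root sum of squares of log2(TPM + 0.1) differences) and 31-base words were computed from the tables and the GENCODE transcripts. Depth on genes in the second tables was 76100930 and 46367810 fragments.

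The text names all members, every gene of the pathway lists, the 2 highest and the lowest gene of each cell type list by mean TPM, the 2 list genes nearest in level to each member, overlapping genes, and member transcripts at 5% of TPM or more in any library; a few of these genes are left out of the text. The members and lists were chosen with earlier results of these data known. Alternatives were total-count and DESeq2 1.42.0 scaling, pseudocounts of 0.1 and 1 CPM, other count filters, the second tables, trend removal and leaving out each library; adding the fragments of overlapping genes, and removing trends for the counts of called genes, were chosen after seeing the data.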

Additional observations from a re-analysis of the deposited data

How the results depend on the processing

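Of 92 alternative values, 87 kept their direction and call, or stayed within the spread between the libraries. Part of this count was fixed in advance. With 2 libraries, a level or ratio with a library left out always stays within that spread. Pseudocounts leave the counts and the test unchanged, and count filters leave the ratio of a member unchanged. With the second transcript tables Gad1 stood at 92.9 TPM, Aldh5a1 at 6.44 TPM, the Gad1 main transcript at 81.4% and the Gad1 to Gad2 ratio at 3.11; the cause was not tested. Those tables also gave lower levels for most genes, with a median of 0.765 and 0.828 times the first TPM. Under total-count scaling the Aldh5a1 log2 ratio was -0.11 and 5 members were called; the cause was not tested. No paired analysis was possible because the design has 1 group. Leaving out a library leaves no test and gave Gad1 levels of 114 to 162 TPM. Depth limits Slc32a1 and Slc6a11 most in replicate 2, at 405 and 689 fragments.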

Other observations

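The vesicular transporters of other transmitters give a setting for Slc32a1, at 12.3 and 7.43 TPM. The glutamate transporter gene Slc17a7 (VGLUT1) had 82.7 TPM in replicate 1 and 37.2 in replicate 2, a log2 CPM ratio of -1.29 by the edgeR-scaled counts, and Slc17a6 (VGLUT2) had 7.31 and 10.2 TPM. The monoamine transporter gene Slc18a2 had 3.25 and 4.34 TPM. Slc17a8 (0.21 and 0.43 TPM), Slc18a1 (0.36 and 0.03) and the acetylcholine transporter gene Slc18a3 (0.97 and 1.03) did not reach 1 TPM in both libraries. Of the 5 tested genes of this list, 3 were higher, 1 was lower and 1 was not called. Over all tested genes 26.2% were higher and 36.4% lower.

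The interneuron markers also differed in both directions. Of 19 tested, 7 were higher in replicate 2, 8 lower and 4 not called, with a median log2 ratio of 0.01. The shares over all tested genes were 26.2% higher and 36.4% lower, with a median of -0.03. The peptide gene Npy had 555 and 750 TPM and the membrane protein gene Lamp5 had 225 and 279. The lowest marker, the factor Sp8, had 1.03 and 1.49 TPM.

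Markers of other cell types were spread over both directions as well, with the calls by the exact binomial test on edgeR-scaled counts. By that test 26.2% of all tested genes were higher and 36.4% lower. Of 7 excitatory neuron markers 2 were higher in replicate 2 and 3 lower, with Camk2a at 848 and 1083 TPM, Arpp21 at 353 and 597, and Neurod2 lowest. Of 11 astrocyte markers 6 were higher and 5 lower. Aldoc led them at 1129 and 1397 TPM, followed by the glutamate transporter gene Slc1a2 at 165 and 188, and Sox9 was lowest at 32.5 and 20.8. Of 7 oligodendrocyte markers 4 were higher and 2 lower, from Mbp at 2061 and 2049 TPM down to Ermn at 22.2 and 30.9. Of 9 meningeal and mural markers 2 were higher and 5 lower, with Vtn at 47.0 and 40.9 TPM, Dcn at 15.5 and 18.0, and Col1a2 lowest at 1.76 and 1.29. Of 9 striatal markers 4 were higher and 3 lower, with Penk at 236 and 286 TPM, Ppp1r1b at 197 and 169, and Drd2 lowest at 4.68 and 4.41. The part of these cell types in the differences of the GABA genes was not tested.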
